A study of Mus musculus with 12 samples.

Results

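Nucleosome remodellers are ATP-driven enzymes that slide, evict or exchange histone octamers, and their genes were examined here in lists of open chromatin from activated neurons of the mouse infralimbic prefrontal cortex (ILPFC). The genes were chosen by symbol alone: protein-coding genes of the Smarca to Smarce, Arid1 to Arid5, Chd1 to Chd9, Ino80 and Actl6 families, with Bptf. In all, 41 of 21887 protein-coding genes met this rule. They comprised 14 BAF subunits, 3 genes of the ISWI family and 10 ATPase genes with Chd symbols (CHD). A further 5 genes belonged to the INO80 complex and 2 encoded other enzymes of the SNF2 family. The remaining 7 were Arid3 to Arid5 genes, which encode DNA-binding proteins and were taken in by their symbols.

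Extinction and retention control mice were compared, all of them male C57BL/6 animals of 10 to 12 weeks trained beforehand with 3 pairings of tone and 0.7 mA foot shock. The next day the extinction group (EXT) was given 60 tones in another context, and the retention control group (RC) stayed there equally long without tones. Infralimbic tissue of 5 mice was pooled per library, cells positive for both Arc and NeuN were sorted, and 50000 of them entered ATAC-seq, in which a transposase cuts accessible DNA. Arc is induced by neuronal activity and NeuN marks neuronal nuclei, so each library is a pool of activated neurons and not an individual animal. Peak lists of 2 EXT libraries and 3 RC libraries were used, out of 12 libraries in the series.

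The lists of EXT replicate 1, EXT replicate 2 and RC replicate 3 covered the whole genome, with 80735, 123375 and 97961 peaks from 65.0, 57.7 and 73.8 M tags (M, 10 to the power 6). As held here, the lists of RC replicates 1 and 2 ended on chromosome 1, so they reached 3 and 1 of the remodeller genes. With 1 complete RC list, no test between groups was possible away from chromosome 1. The number of peaks did not follow the number of tags, since EXT replicate 2 had the fewest tags and the most peaks. In the order EXT replicate 1, EXT replicate 2 and RC replicate 3, end peaks were present at 6, 7 and 6 of 7 neuronal marker genes. Rbfox3, which encodes NeuN itself, had one only in EXT replicate 2. In the same order, end peaks were present at 1, 1 and 1 of 5 astrocyte markers, at 1, 3 and 1 of 5 oligodendrocyte markers, at 1, 0 and 0 of 5 microglial markers and at 1, 2 and 2 of 5 endothelial markers. The higher oligodendrocyte count in EXT replicate 2 came from Mbp and Mag. Non-neuronal marker peaks were not all weak. In the same order, the endothelial marker Cldn5 had folds of 11.7, 8.18 and 12.1 and the oligodendrocyte marker Sox10 5.58, 3.71 and 6.82. The neuronal marker Map2 had 11.2, 9.48 and 11.1. The part of non-neuronal signal in the counts below was not tested.

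Mammalian BAF (SWI/SNF) complexes hold 1 ATPase, Smarca4 or Smarca2, and a set of exchangeable subunits. When neural progenitors leave the cell cycle, the actin-related subunit Actl6a is replaced by its neuronal paralog Actl6b, and mice lacking Actl6b have defects of dendrite growth and of long-term memory. ISWI enzymes space nucleosomes, the Chd3, Chd4 and Chd5 ATPases drive the NuRD deacetylase complex, and INO80 moves nucleosomes and exchanges a histone variant. Chd5 is expressed mainly in brain and testis, and Smarca1 and Smarcd3 are enriched in neurons or brain relative to their paralogs.

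Promoter sequences are shown for 3 neuronal genes, each followed by its ubiquitous paralog, because in these 3 pairs the ubiquitous gene had the stronger end peak in each complete list, as described below. Each runs 5′ to 3′ on the strand of the gene from 250 bases before to 50 bases after the RefSeq start (RefSeq, GRCm38.p6, the build called mm10), and capitals mark CG dinucleotides. The windows are chr5:137553296-137553595 (plus strand) for Actl6b, chr3:32708296-32708595 (plus) for Actl6a, chr4:152338401-152338700 (plus) for Chd5, chr6:125095731-125096030 (plus) for Chd4, chrX:47892564-47892863 (minus) for Smarca1 and chr8:80739410-80739709 (minus) for Smarca5.
Actl6b: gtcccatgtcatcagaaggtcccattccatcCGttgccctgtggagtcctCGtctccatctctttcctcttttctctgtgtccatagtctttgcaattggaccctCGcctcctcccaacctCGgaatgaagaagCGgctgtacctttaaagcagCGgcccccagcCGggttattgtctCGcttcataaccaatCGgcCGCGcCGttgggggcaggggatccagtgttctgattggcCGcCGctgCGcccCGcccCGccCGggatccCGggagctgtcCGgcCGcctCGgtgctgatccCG
Actl6a: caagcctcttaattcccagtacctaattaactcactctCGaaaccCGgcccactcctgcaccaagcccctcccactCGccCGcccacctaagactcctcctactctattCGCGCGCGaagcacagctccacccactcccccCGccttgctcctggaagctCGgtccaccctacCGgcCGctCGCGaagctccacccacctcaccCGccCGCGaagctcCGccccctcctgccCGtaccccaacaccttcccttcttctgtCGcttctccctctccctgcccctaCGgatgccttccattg
Chd5: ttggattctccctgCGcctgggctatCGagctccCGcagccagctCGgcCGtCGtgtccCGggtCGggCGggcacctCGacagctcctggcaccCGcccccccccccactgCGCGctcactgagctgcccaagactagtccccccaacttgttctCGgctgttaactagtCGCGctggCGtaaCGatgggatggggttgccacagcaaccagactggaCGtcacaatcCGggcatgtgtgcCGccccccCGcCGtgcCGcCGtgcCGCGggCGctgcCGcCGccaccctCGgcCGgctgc
Chd4: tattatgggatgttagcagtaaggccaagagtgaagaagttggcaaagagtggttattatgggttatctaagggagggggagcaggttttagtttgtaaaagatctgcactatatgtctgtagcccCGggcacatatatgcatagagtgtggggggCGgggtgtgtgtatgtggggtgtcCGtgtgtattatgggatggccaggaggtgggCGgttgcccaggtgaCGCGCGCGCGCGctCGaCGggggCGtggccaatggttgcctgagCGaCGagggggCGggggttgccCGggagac
Smarca1: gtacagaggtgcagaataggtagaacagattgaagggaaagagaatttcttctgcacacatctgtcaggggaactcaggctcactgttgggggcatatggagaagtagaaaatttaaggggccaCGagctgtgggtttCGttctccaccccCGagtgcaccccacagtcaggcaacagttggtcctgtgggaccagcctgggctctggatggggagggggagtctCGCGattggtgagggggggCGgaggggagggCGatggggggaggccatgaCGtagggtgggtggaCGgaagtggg
Smarca5: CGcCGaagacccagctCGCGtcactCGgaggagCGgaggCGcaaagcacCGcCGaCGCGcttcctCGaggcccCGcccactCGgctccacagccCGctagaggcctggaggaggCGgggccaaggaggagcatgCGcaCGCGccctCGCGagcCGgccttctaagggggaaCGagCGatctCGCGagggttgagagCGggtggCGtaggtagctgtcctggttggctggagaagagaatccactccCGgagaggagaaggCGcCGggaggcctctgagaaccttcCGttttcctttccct

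The Actl6b window held 23 CG dinucleotides and the Actl6a window 21. Chd5 had 32 against 17 in Chd4, and Smarca1 had 9 against 32 in Smarca5, so CG content did not order the neuronal and the ubiquitous genes one way. Chd5 and Chd4 each had a second tabulated window, not shown, with 33 and 29 CG dinucleotides, so the gap of this pair depends on the window. All 6 windows held a GC box. The whole windows shown for Actl6a, Chd4 and Smarca5 lay inside a peak in every complete list. At Actl6b, peaks covered 191 and 236 of the 300 bases in EXT replicates 1 and 2 and 228 in RC replicate 3. The Chd5 and Smarca1 windows were touched only in EXT replicate 2, over 160 and 118 bases.

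A gene was counted as having an end peak where any base of a peak fell within 1 kb of its lower or upper end. Such a window takes in the 3′ end of a gene as well as its start. Remodeller genes had an end peak in 34 of 41 cases in EXT replicate 1 (82.9%), in 38 in EXT replicate 2 (92.7%) and in 35 in RC replicate 3 (85.4%). Among all protein-coding genes the shares were 53.3%, 61.1% and 56.1%. Remodeller genes are long, with a median span of 59.9 kb against 17.2 kb for all protein-coding genes, and length moves with these shares. Of the 6398 protein-coding genes whose span lay within the interquartile range of the remodeller spans, 24.8 to 106 kb, 62.8%, 71.8% and 65.7% had an end peak in the same lists. The mean EXT share was 2.44 percentage points above that of RC replicate 3, less than the SD of 6.90 points between the EXT lists, and it was -2.44 points without EXT replicate 2 and 7.32 points without EXT replicate 1. In pooled cells, a site open in fewer cells cannot be told apart from one less open in each cell.

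End peaks were common to all 3 complete lists at 33 of the 41 genes, where 49% of all protein-coding genes did. BAF subunits had one in 13, 14 and 13 of 14 cases in EXT replicate 1, EXT replicate 2 and RC replicate 3. Among the genes with Chd symbols the counts were 8, 8 and 7 of 10, and among INO80 genes 4, 5 and 4 of 5. The ISWI genes had 2, 3 and 2 of 3, and the 2 further SNF2-family enzymes, Smarcad1 and Smarcal1, had one in every list. The Arid3 to Arid5 genes had 5, 6 and 7 of 7, the only one of these classes in which RC replicate 3 held the highest count. The counts of every class in the 2 EXT lists differed by at most 1 gene, and those of RC replicate 3 lay within 2 genes of either. With classes of 2 to 14 genes and 1 complete RC list, these counts cannot decide whether a class differs between EXT and RC.

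**Figure D1:**
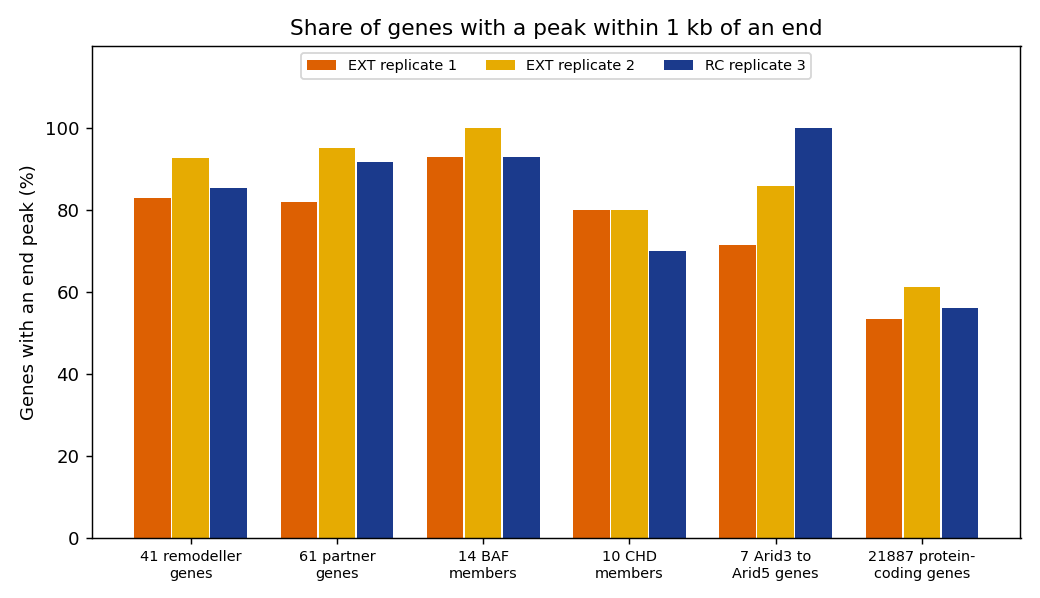
Share of genes (%) with an end peak in EXT replicate 1, EXT replicate 2 and RC replicate 3, for the remodeller genes, their partner genes, 3 classes of remodeller gene and all protein-coding genes. Each bar is 1 library; remodeller genes reached 82.9%, 92.7% and 85.4%, against 53.3%, 61.1% and 56.1% for all protein-coding genes.

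The other subunits of these complexes gave similar values. Of 61 partner genes that the symbols do not take in, 50, 58 and 56 had an end peak in EXT replicate 1, EXT replicate 2 and RC replicate 3. BAF partners, such as the PHD-finger subunits Dpf1 to Dpf3, had 12, 15 and 15 of 16, and NuRD partners 10, 11 and 11 of 12. ISWI partners had 6, 7 and 7 of 8, INO80 and SRCAP partners 14, 16 and 15 of 16, and other SNF2-family ATPases 8, 9 and 8 of 9. Ss18, Cdk2ap1 and Baz1a had none in any complete list. Dpf3, Bcl7c, Bcl11b, Mta1, Baz2a and Tfpt lacked one in EXT replicate 1 alone, and that list is the shortest of the 3.

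The strength of an end peak was read as its percentile within its own list, by the authors' −log10 q, and as the authors' fold enrichment over local background. Both belong to their own list, and a difference between lists of unequal length is no change. The median percentile of the best end peak of a remodeller gene was 85.0, 90.4 and 88.0 in EXT replicate 1, EXT replicate 2 and RC replicate 3, where all protein-coding genes with an end peak had 77.6, 85.7 and 80.5. The median folds were 5.50, 7.80 and 6.37, against 5.06, 7.11 and 5.49. The plot of best end peaks shows most remodeller genes to the right of the genome-wide medians.

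**Figure D2:**
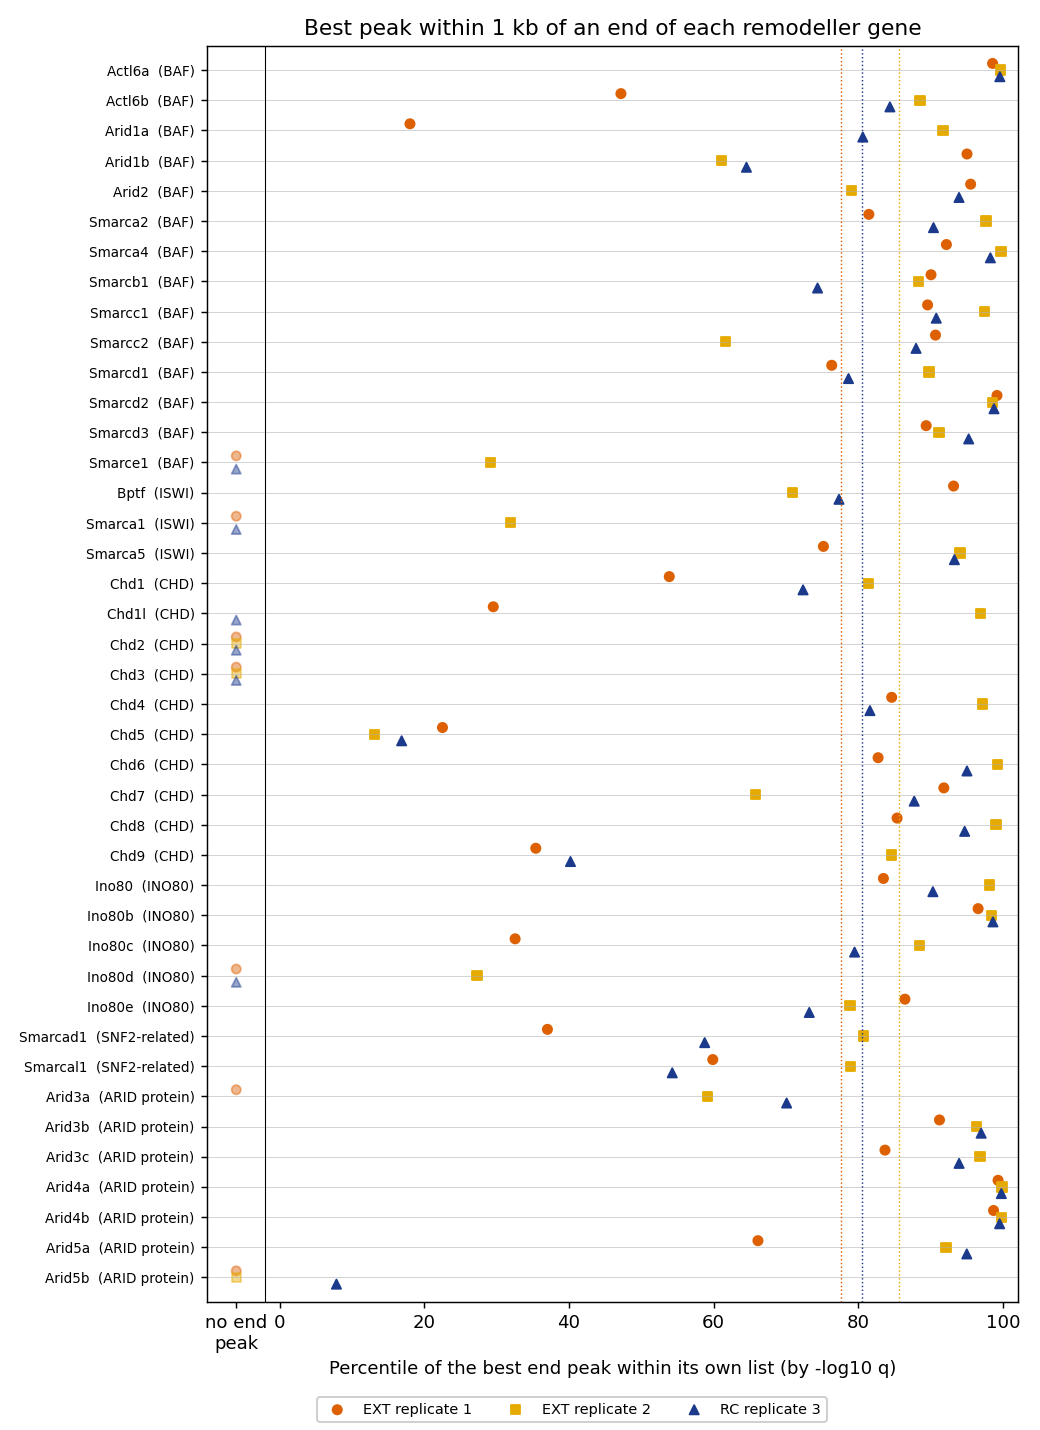
Percentile, within its own list and by −log10 q, of the best peak within 1 kb of an end of each of the 41 genes, with circles for EXT replicate 1, squares for EXT replicate 2 and triangles for RC replicate 3; pale symbols at the left mark no end peak, and dotted lines the medians over all protein-coding genes with one. Arid4a, Arid4b, Actl6a and Smarcd2 sit above the 98th percentile in all 3 lists, and Chd5 below the 23rd.

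The strongest end peaks stood at Arid4a and Arid4b, whose products belong to the Sin3 deacetylase complex, and at Actl6a. Arid4a had folds of 10.4 and 17.3 in EXT replicates 1 and 2 and 14.9 in RC replicate 3, with a mean percentile of 99.6. Its peak also reached an end of 3110056K07Rik in all 3 lists. Arid4b had folds of 8.12 and 15.7 in the EXT lists and 11.2 in RC replicate 3, with a mean percentile of 99.3. The Arid4b peak also reached an end of Ggps1, so neither peak can be assigned to the Arid4 gene alone. Among genes with an end peak in every complete list, Chd5, Chd9 and Smarcad1 had the weakest, with mean percentiles of 17.5, 53.4 and 58.8. Chd9, a CHD ATPase, had folds of 2.80 and 5.74 in the EXT lists and 2.97 in RC replicate 3. Smarcad1, an ATPase that acts in heterochromatin maintenance and DNA end resection, had folds of 3.70 and 8.38 in the EXT lists and 4.83 in RC replicate 3. At both genes EXT replicate 2 was highest and EXT replicate 1 lowest, with RC replicate 3 between them.

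The BAF ATPases were open at their starts in every complete list. Smarca4 (BRG1) had folds of 6.39 and 15.7 in EXT replicates 1 and 2 and 9.21 in RC replicate 3. Smarca2 (BRM) had folds of 4.73 and 9.45 in the EXT lists and 5.84 in RC replicate 3. Smarca4 was thus above Smarca2 within each list, at the 92.2nd, 99.7th and 98.2nd percentiles against the 81.4th, 97.6th and 90.4th. Of the alternative DNA-binding subunits of canonical BAF, Arid1a was at the 18.0th, 91.7th and 80.6th percentiles in EXT replicate 1, EXT replicate 2 and RC replicate 3. Arid1b was at the 95.0th, 61.1st and 64.5th percentiles, so the pair had opposite orders in EXT replicate 1 and in the other complete lists. The best Arid1a peak of EXT replicate 1, with a fold of 2.55, lay outside the promoter window, which held a peak only in EXT replicate 2 and RC replicate 3. By percentile the EXT lists lay on either side of RC replicate 3 at both genes; by fold this held at Arid1a, while Arid1b had 7.79 and 4.10 in the EXT lists and 3.87 in RC replicate 3.

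Neuronal and ubiquitous subunits were then set side by side. An end peak was present at 3, 4 and 3 of the 4 neuronal genes (Actl6b, Chd5, Smarca1 and Smarcd3) in EXT replicate 1, EXT replicate 2 and RC replicate 3, and at 26, 28 and 25 of 30 ubiquitous genes. The neuronal share minus the ubiquitous share was -11.7, 6.67 and -8.33 percentage points, with a mean of -4.44 and an SD of 9.77 between the lists. The lists were scored on the same genes, so this SD does not measure the spread between genes and cannot decide whether the classes differ. Genes are not replicates, and no test was made over them. The mean difference depended on the window. Over promoter windows alone, a peak was present at 1, 3 and 1 of the 4 neuronal genes. The counts were 17, 20 and 19 of 22 tabulated ubiquitous genes, a mean difference of -43.2 points. In lists of equal length the difference at gene ends was -27.2 points, and with a −log10 q of at least 5 it was -26.1 points. The strength of the peaks differed by pair.

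Actl6b had folds of 3.65 and 7.85 in EXT replicates 1 and 2 and 6.45 in RC replicate 3, and Actl6a had 9.78, 15.0 and 12.7. Their percentiles were 47.2, 88.5 and 84.4 for Actl6b and 98.5, 99.6 and 99.5 for Actl6a. The ubiquitous subunit had the stronger end peak in all 3 lists of these sorted neurons. Actl6b held more peaks inside its span, 2, 5 and 3 against 1 in every list for Actl6a, whose spans are 16.2 and 18.4 kb. One inside peak of Actl6b, at chr5:137561951-137562110, had the same bounds in EXT replicate 1 and RC replicate 3, with folds of 6.76 and 5.46. EXT replicate 2 had an overlapping peak there with a fold of 4.40.

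Chd5 had end peaks with folds of 2.35 and 2.13 in EXT replicates 1 and 2 and 2.01 in RC replicate 3, and Chd4 had 4.32, 7.77 and 5.51. The percentiles were 22.5, 13.1 and 16.9 for Chd5 and 84.6, 97.1 and 81.6 for Chd4. Chd5 was weak in all 3 lists, and in EXT replicate 2 the peak over its promoter window was at the 0.448th percentile. In RC replicate 3 its only end peak lay at the far end of the gene, within reach of Kcnab2, and the best one of Chd4 lay near Nop2. The peak over the Chd4 promoter window in RC replicate 3 had a fold of 4.04, at the 80.5th percentile. Inside its span Chd5 held 4, 10 and 9 peaks, or 7.76, 19.4 and 17.5 per 100 kb, and the highest fold inside was 3.62 and 5.46 in the EXT lists and 3.95 in RC replicate 3. Each of these exceeded the end peak of the same list.

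Smarca1, an ISWI ATPase that forms NURF with Bptf, had an end peak only in EXT replicate 2, with a fold of 4.09 at the 31.9th percentile. Smarca5, the ISWI ATPase of most other ISWI complexes, had folds of 4.85 and 9.14 in EXT replicates 1 and 2 and 7.46 in RC replicate 3. Inside Smarca1 a 160 bp peak at chrX:47832258-47832417 had the same bounds in EXT replicate 2 and RC replicate 3, with folds of 9.07 and 4.33. EXT replicate 1 had no peak anywhere in the 83.2 kb of Smarca1. Its mean density of 1.60 peaks per 100 kb was the lowest of the set after Arid3c. Smarca1 lies on the X chromosome, of which male mice carry 1 copy, and the part of this in its counts was not tested.

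Smarcd3, the BAF subunit enriched in brain and heart, had a stronger end peak than Smarcd1 in each list but a weaker one than Smarcd2, its other ubiquitous paralog. Its best end peak had folds of 5.75 and 6.86 in EXT replicates 1 and 2 and 7.15 in RC replicate 3, and Smarcd1 had 3.83, 5.18 and 3.69. The percentiles were 89.4, 91.1 and 95.2 for Smarcd3 and 76.3, 89.8 and 78.6 for Smarcd1. Smarcd2 had folds of 9.15, 10.4 and 8.75, at a peak within reach of Tcam1. The Smarcd3 peak lay at the upper end of the annotated span, with its summit at positions -21528, -22262 and -22379 bp from the start in the promoter table. That window itself held no peak in any complete list, so the accessible end of Smarcd3 was not the start given by the table. The Smarcd1 peak also reached an end of Asic1 in the EXT lists. In RC replicate 3 the best Smarcd1 end peak lay at its upper end instead, 12749 bp from its start and within reach of Gm16537. The peak over the Smarcd1 promoter window in that list had a fold of 3.50, at the 72.8th percentile.

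**Figure D3:**
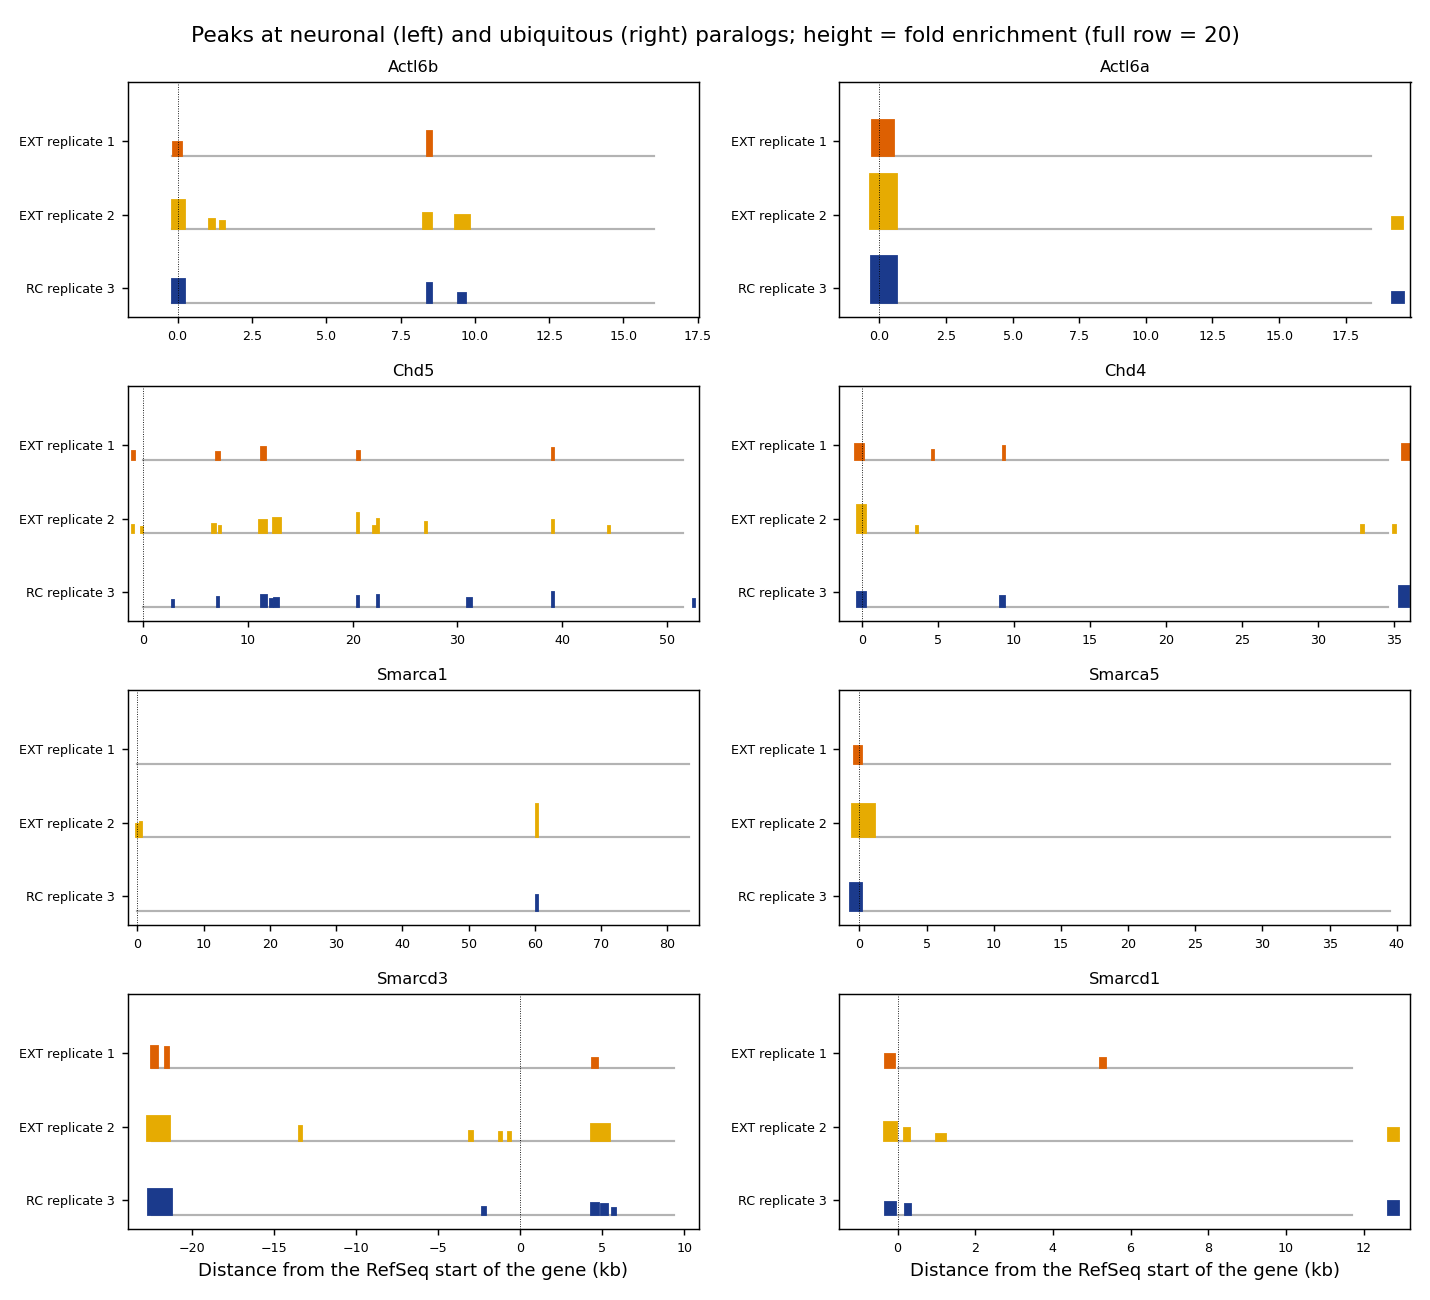
Peaks at the 4 neuronal genes (left) and their ubiquitous paralogs (right) in EXT replicate 1, EXT replicate 2 and RC replicate 3 against distance (kb) from the RefSeq start, with block height giving the authors' fold enrichment and grey lines the annotated span; peaks narrower than 1 part in 250 of the panel are widened to be visible. Actl6a and Smarca5 have their tallest block at the start in all 3 lists. Chd4 has one at the start and, in RC replicate 3, a taller one at its far end. The Chd5 blocks are spread along the gene. The tallest Smarcd3 block of each list stands at a negative distance, and each list also has lower blocks at positive distances.

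The presence of an end peak differed among the complete lists for 6 genes. Chd1l, a CHD ATPase that is switched on by poly(ADP-ribose) at DNA damage, was the only one whose end peak was found in the EXT lists and was missing from RC replicate 3, a pattern shared by 2.01% of protein-coding genes. Its EXT peaks were at different places: EXT replicate 1 had a fold of 3.45 (29.5th percentile) at chr3:97609469-97609831 and EXT replicate 2 a fold of 14.9 (96.9th percentile) at chr3:97609845-97610557. Only the second covered the promoter, and it lay within reach of an end of Fmo5. The Chd1l pattern thus rested on unlike peaks, and 1 gene in 41 is close to the genome-wide share.

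Ino80d, Smarca1 and Smarce1 had an end peak in EXT replicate 2 alone, as did 5.4% of protein-coding genes. The peak at Smarce1, which encodes the HMG-box subunit of BAF, had a fold of 3.56 at the 29.1st percentile. Arid3a, an activator of immunoglobulin transcription in B cells, had end peaks in EXT replicate 2 (fold 3.38) and RC replicate 3 (fold 4.15) and not in EXT replicate 1, a pattern of 4.69% of genes. Arid5b, which works with a histone demethylase, had one only in RC replicate 3, with a fold of 2.28 at the 7.85th percentile, a pattern of 1.06% of genes. No gene had an end peak in EXT replicate 1 alone (1.03% of genes) or in EXT replicate 1 and RC replicate 3 alone (1.27% of genes). Except for the Chd1l peak of EXT replicate 2, the end peaks of these 6 genes were below the genome-wide median percentile for best end peaks of their list.

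Chd2 and Chd3 had no end peak in any complete list, as for 35.5% of protein-coding genes. Chd2, an ATPase that is mutated in a childhood epilepsy in humans, held a strong peak inside its span instead. This peak had folds of 7.46 and 12.8 in EXT replicates 1 and 2 and 8.24 in RC replicate 3, at the 96.3rd, 98.9th and 98.7th percentiles. Its summits lay 3853, 3868 and 3875 bp from the upper end of the gene, outside the 1 kb window. Chd3, a NuRD ATPase, had its best inside peaks at different places in each list, with folds of 5.82 and 8.47 in the EXT lists and 5.18 in RC replicate 3. At chr11:69366256-69366839, 2916 bp from the upper end, EXT replicate 2 reached the 96.9th percentile, and EXT replicate 1 and RC replicate 3 had overlapping peaks at the 84.2nd and 70.3rd. Both genes were therefore accessible near an end in every list, but beyond the window.

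Strand and start were given by the promoter table for 31 of the 41 genes. A peak overlapped the 300 bp promoter window in 21, 26 and 23 of them in EXT replicate 1, EXT replicate 2 and RC replicate 3 (67.7%, 83.9% and 74.2%), where 45%, 53% and 46.8% of all tabulated protein-coding genes had one. The 21 genes of EXT replicate 1 had a promoter peak in the other 2 lists as well. Chd1l, Chd5, Smarca1 and Smarcc2 had one only in EXT replicate 2, Arid1a in EXT replicate 2 and RC replicate 3, and Ino80b only in RC replicate 3. Arid3c, Arid5b, Smarcd2 and Smarcd3 had none.

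End peaks were not always at the gene itself. In 11, 13 and 13 of the genes with an end peak in EXT replicate 1, EXT replicate 2 and RC replicate 3, the best one also reached an end of another gene. At Arid3c it reached Dctn3, at Ino80b Wbp1, at Ino80e Hirip3 and at Smarcd2 Tcam1, in every complete list. Ino80b, the smallest of the genes at 3.36 kb, had folds of 6.49 and 9.05 in the EXT lists and 7.82 in RC replicate 3 at the Wbp1 side. The only peak over its own promoter window, in RC replicate 3, had a fold of 2.25. High percentiles at these genes cannot be assigned to the remodeller gene rather than to its neighbour.

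The 38 promoter windows of the 31 genes were rich in G and C, with a median of 65.5% (34.7% to 81%), against 56.3% over 21263 windows of all tabulated protein-coding genes. They held a median of 24.5 CG dinucleotides (1 to 48), against 13. The GC box GGGCGG, searched on both strands, was present in 78.9% of them and in 46.2% of all windows. CCAAT was present in 34.2% against 38.2%, the ETS letters CCGGAAG in 13.2% against 11.6%, and TATAAA in 5.26% against 12.6%. The AP-1 letters TGANTCA were found in 5.26% against 6.99%, at Smarca2 and Smarcb1, and the E-box CACGTG in 5.26% against 7.84%. The cyclic AMP response element TGACGTCA was in none of the 38 windows and in 2.23% of all windows. These are matches of letters, and no binding was measured.

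Inside the gene spans, 218, 332 and 259 peaks touched remodeller genes in EXT replicate 1, EXT replicate 2 and RC replicate 3. Per 100 kb of span this was 6.90, 10.5 and 8.20 peaks, against 5.19, 7.76 and 6.25 over all protein-coding genes. Arid1b, the longest of the genes at 353 kb, held 36, 62 and 45 of these peaks, and without it the densities were 6.49, 9.62 and 7.63. EXT replicate 2 held more peaks than RC replicate 3 in 23 genes and fewer in 2, while EXT replicate 1 held more in 8 and fewer in 19. The EXT lists thus lay on opposite sides of RC replicate 3, in the order of the lengths of the lists. RC replicate 3 was below both EXT lists in 6 genes and above both in 1, where 8.48% and 8.94% of all protein-coding genes did so.

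**Figure D4:**
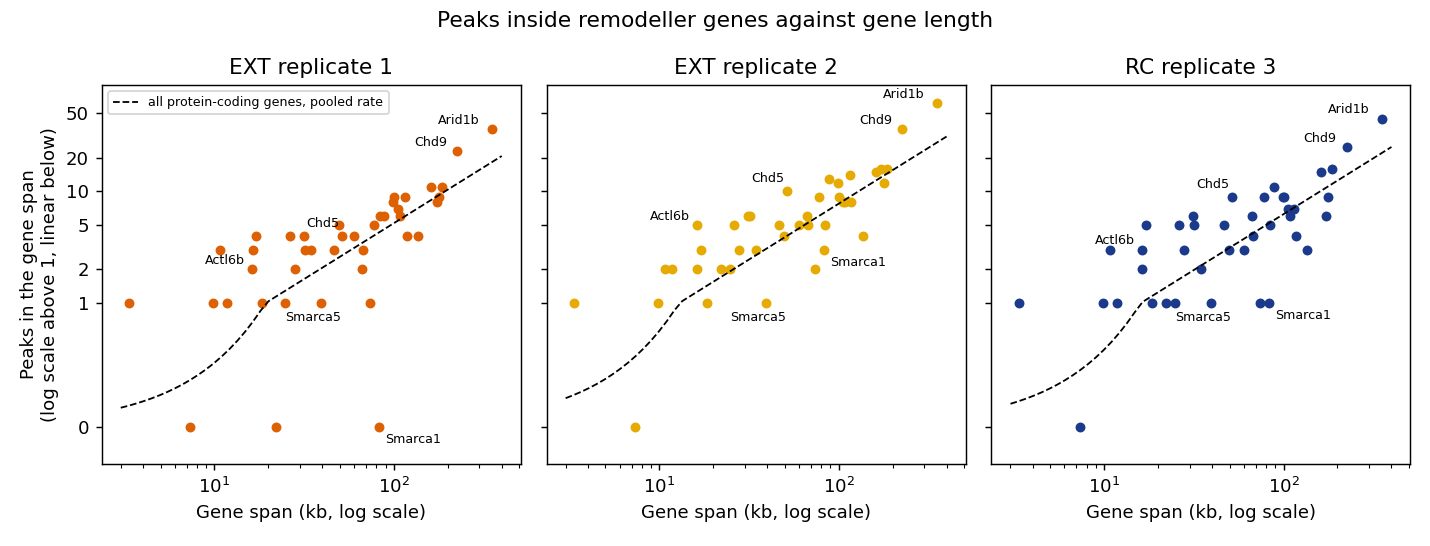
Number of peaks in the span of each remodeller gene against its length (kb, log scale) in EXT replicate 1, EXT replicate 2 and RC replicate 3; the vertical axis is logarithmic above 1 and linear below, and the dashed line is the pooled rate over all protein-coding genes (5.19, 7.76 and 6.25 peaks per 100 kb). Arid1b and Chd9 lie above the line in all 3 lists, and Smarca5 and Smarca1 below it.

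The densest genes were short. Averaged over the 3 complete lists, Ino80b had 29.8 peaks per 100 kb, from 1 peak in each list. Ino80e had 24.7, Ino80c 23.4, Actl6b 20.5 and Chd3 17.8. Of these, Ino80c held 4 and 3 peaks in the EXT lists and 5 in RC replicate 3. The sparsest were Arid3c with none, Smarca1 with 1.60, Smarcad1 with 1.81, Smarca5 with 2.53 and Arid4b with 2.70. Smarca5 had 1 peak in each list, that at its start, in 39.5 kb. Arid4b had 4, 4 and 3 peaks in 136 kb although its end peak was among the strongest of the set, so a strong start and a dense span did not go together there.

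When overlapping peaks of the 3 complete lists were merged, remodeller genes with 1 kb either side held 472 regions. Of these, 132 (28.0%) were in all 3 lists, where 27.7% of regions at all protein-coding genes were. Regions found in the EXT lists but missing from RC replicate 3 numbered 22 (4.66%, against 4.22%). Regions of RC replicate 3 alone numbered 60 (12.7%, against 11.5%), and those of EXT replicate 2 alone 139 (29.4%, against 28.1%). These shares lay near those of all genes. Of the 22 regions, 7 were in Arid1b and 2 in Smarca4, and their EXT folds were low, from 2.26 to 4.67 in EXT replicate 1 and from 2.13 to 6.40 in EXT replicate 2. The highest fold in EXT replicate 2, 6.40, was at the lower end of Chd7, where RC replicate 3 had no overlapping peak. Chd7, mutated in CHARGE syndrome in humans, nevertheless had another end peak in RC replicate 3, at chr4:8690043-8690202, with a fold of 8.23. That peak was also in EXT replicate 1 with the same bounds and a fold of 9.17. EXT replicate 2 had an overlapping peak there with a fold of 4.44.

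Some peaks had the same start and end to the base in separate libraries. Of the 230 peaks of EXT replicate 1 at remodeller genes, 33 (14.3%) had identical bounds in RC replicate 3 and 14 (6.09%) in EXT replicate 2, against 15.1% and 6.24% at all protein-coding genes. Of the 349 peaks of EXT replicate 2, 27 (7.74%) had identical bounds in RC replicate 3, against 9.18%. The median width of these shared peaks was 160 bp, which is also the most common width in every list. In all 3 lists 14 peaks were identical, and 4 of these were in Arid1b and 2 in Chd7. The strongest, at chr4:8866538-8866698 near the upper end of Chd7, had folds of 14.2 and 9.42 in EXT replicates 1 and 2 and 15.9 in RC replicate 3. The authors kept duplicate tags, and their part in such peaks was not tested. Few of the best end peaks were as narrow: 1, 2 and 2 of them were 160 bp or less, and their median widths were 377, 648 and 544 bp.

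On chromosome 1 more than 1 RC list could be read. Arid5a, which encodes a protein that also binds and stabilises inflammatory messenger RNAs, was reached by all 5 lists at chr1:36307733-36324037. With 1 kb either side it held 3 and 2 peaks in EXT replicates 1 and 2, and 3, 2 and 4 in RC replicates 1, 2 and 3. The means were 2.5 ± 0.707 in EXT (SD, n = 2) and 3 ± 1 in RC (SD, n = 3), which did not differ beyond the spread (two-sided exact permutation p = 0.7, where the smallest possible is 0.1). The bases covered by peaks were 657 and 521 in EXT, and 891, 646 and 967 in RC. Their means were 589 ± 96.2 in EXT (SD, n = 2) and 835 ± 168 in RC (SD, n = 3), a difference of -246 bases that is larger than either SD, with a two-sided exact permutation p of 0.3. The peak at its start was in every list, with folds of 3.50 and 5.90 in EXT replicates 1 and 2 and 7.68, 8.61 and 6.37 in RC replicates 1, 2 and 3. The EXT folds were lower than those of RC, but each fold is set against the background of its own list and this is no test of a change. A region with summits 7926 and 7965 bp into the gene was in both EXT lists, with folds of 2.56 and 4.68, and in no RC list.

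Smarcal1, an annealing helicase that restarts stalled replication forks, was reached by 4 lists. It held 9 and 9 peaks in EXT replicates 1 and 2, and 7 and 10 in RC replicates 1 and 3. The two-sided exact permutation p for the difference was 1. With 2 lists against 2, each split and its mirror give the same absolute difference, so no small p was possible. Its promoter peak had folds of 6.46 and 12.1 in the EXT lists and 11.9 and 7.37 in RC replicates 1 and 3, so each group held 1 high and 1 low value. Its summits lay 46444 to 46467 bp inside the annotated span, while the end peak at the lower end was within reach of Marchf4.

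Ino80d, a subunit gene of INO80, was reached by the same 4 lists and held 2 and 7 peaks in EXT replicates 1 and 2, and 5 and 6 in RC replicates 1 and 3 (exact permutation p = 1). Its upper end, which lies beside Ino80dos, had a peak in EXT replicate 2 (fold 3.42) and in RC replicate 1 (fold 4.37), and in neither EXT replicate 1 nor RC replicate 3. The strongest inside peak, at chr1:63086310-63086472, had the same bounds in EXT replicate 2, RC replicate 1 and RC replicate 3, with folds of 7.06, 14.5 and 6.43. A weaker region at chr1:63090223-63090400 was in both EXT lists, with folds of 3.54 and 3.26, and in neither RC list that reached it. In number of peaks, the EXT lists thus differed from each other at Ino80d more than either did from an RC list, while the RC lists lay close together.

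**Figure D5:**
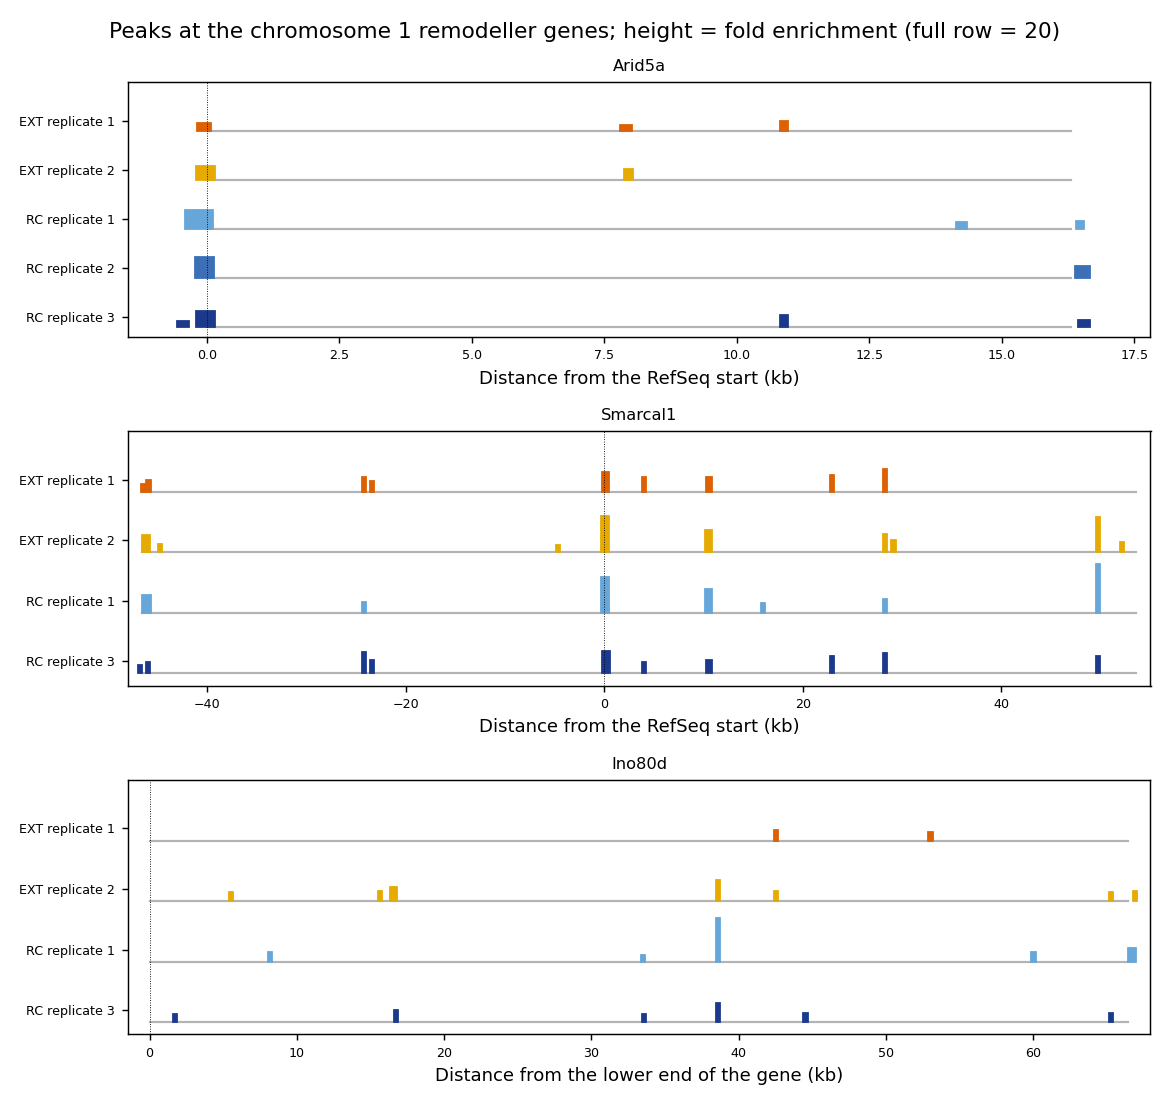
Peaks at Arid5a, Smarcal1 and Ino80d in the EXT lists (upper rows) and the RC lists that reach each gene (lower rows). Distance (kb) is from the RefSeq start, or from the lower end for Ino80d. Block height gives the authors' fold enrichment up to a cap, exceeded only by 1 Smarcal1 peak of RC replicate 1 with a fold of 17.3. Grey lines give the annotated span, and peaks narrower than 1 part in 250 of the panel are widened. Arid5a has a block at its start in all 5 lists, and the strongest inside block of Ino80d is missing only from EXT replicate 1.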

How the data were processed

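Per the submitters' processing notes, the build was mm10 and the tools included cutadapt 1.17, BWA 0.7.17, SAMtools 1.8, bedtools 2.27.1 and MACS2 2.2.4; the aligner used for ATAC-seq is not stated. Peak calling by the authors was done per library with MACS2 and without a control library, per the file headers, with a tag shift of -75 bp, an extension to 150 bp, duplicates kept and a q cutoff of 0.05. The deposited pileup is a coverage signal at the summit. The deposited fold is a ratio, pileup over local background. The deposited −log10 values of p and of q rest on the same background, and −log10 q ranked peaks within a list. Depth per library is the total of tags in the headers, and no read counts per gene were used, so errors are the spread among lists.

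Samples were grouped by title. The deposited file of EXT replicate 2 bears the number 3 in its name, so that which pool it holds rests on the title. Of the 5 lists, 2 stop on chromosome 1 as held here. Genes and promoters came from RefSeq (GRCm38.p6). Peaks were intersected with the 1 kb either side of each gene end, with spans and with 300 bp promoter windows (at least 1 bp), in Python 3.11.15 with pandas 2.3.3 and numpy 2.4.6. The overlap code was tested on simulated intervals. With 1 complete RC list, the groups were tested only on chromosome 1, by two-sided exact permutation over libraries. Whether libraries came from separate mouse cohorts is not stated, so these p-values measure the spread between pools of 5 mice.

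All 41 genes were counted. Full values are given for the 4 neuronal and ubiquitous pairs, the chromosome 1 genes, genes whose end peak differed among lists or was absent, the 3 highest and 3 lowest in mean percentile, and the 5 densest and 5 sparsest in peaks. The members and lists were chosen with earlier results of these data known. Other genes were named after their values were seen, as were the genes of matched length, the densities without Arid1b and the count of identical bounds. Alternatives were lists of equal length, peaks with a −log10 q of 5 or more, summits, no peaks of 160 bp or less, windows of 500 bp and 2 kb, an overlap of 50 bp, promoter windows only, and leaving out libraries. EXT replicate 3 and 6 lncRNA capture libraries were not analysed here.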

Additional observations from a re-analysis of the deposited data

How the results depend on the processing

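Of 81 values under alternative settings, 71 stayed within the spread of the main values and 10 moved beyond it. The neuronal minus ubiquitous difference changed sign with Actl6b and Chd5 alone as neuronal. The EXT minus RC difference in share changed sign without EXT replicate 2. Peaks per 100 kb of remodeller span in EXT replicate 2 were 7.18 with a −log10 q of at least 5 and 5.89 in lists of equal length, against 10.5. The neuronal minus ubiquitous share of genes with an end peak, -4.44 points, was 12.2 with Actl6b and Chd5 alone as neuronal, -26.1 with the stricter q, -27.2 in lists of equal length, -17.8 without peaks of 160 bp or less, -17.8 with windows of 500 bp and -43.2 with promoter windows only; it ranged from -10 to -0.833 when 1 EXT list was left out. It therefore depends on how weak and distant peaks at 4 genes are treated. With promoter windows only, 21 genes in EXT replicate 1 and 23 in RC replicate 3, of 31, had a peak. In lists of equal length, 34, 34 and 33 of 41 genes had an end peak in EXT replicate 1, EXT replicate 2 and RC replicate 3. Leaving out 1 list moved the EXT minus RC difference in share from -2.44 to 7.32 points and that in Arid5a peaks from -1 to 0. Pairing replicates 1 and 2 by number as a replicate block gave an Arid5a difference of 0 (exact p = 1, smallest possible 0.5). The numbers are not stated to mark a shared batch, and the number of EXT replicate 2 rests on its title, since its file is numbered 3. EXT replicate 1, with the shortest complete list, lacked an end peak at 5 of the 6 genes whose state varied.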
